A study of Mus musculus with 6 samples.

Results

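Endothelial surface markers are the transcripts by which endothelial cells are usually recognized, and 10 of them were followed here in cultures made from the stria vascularis, the vascularized lateral wall tissue of the cochlea. They were *Emcn*, *Eng*, *Cd34*, *Pecam1*, *Egfl7*, *Plvap*, *Clec14a*, *Esam*, *Vwf* and *Mcam*, chosen by gene symbol, and all 10 were found among the 24421 genes of the deposited count table. RNA was sequenced from 3 *Nhe6*-knockout and 3 wildtype cultures of primary endothelial cells, with 1 library per culture. The mice were 10 to 12 days old, none of the cultures had been treated, and the labels give C57BL/6N as the background of both genotypes, while the study's methods describe a backcross to C57bl6/j. By the study's methods, the dissected tissue included the spiral ligament, each culture pooled the cells of several mice, and the cells had been sorted by flow cytometry and passaged before use. The question was which of these markers the cultures expressed, and whether the genotypes differed in them.

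Endothelial cells line blood vessels and carry at their surface a set of mucins, signalling receptors and adhesion molecules that meet the blood and the neighbouring cells. In the stria vascularis they form the blood-labyrinth barrier together with pericytes and perivascular macrophage-like melanocytes. Few of the markers belong to endothelial cells alone, since *Eng* and *Mcam* are also known from mesenchymal stromal cells and pericytes, *Cd34* from fibroblasts and blood progenitors, and *Pecam1* and *Vwf* from platelets. Many endothelial genes are controlled by ETS transcription factors, whose binding sites hold the core GGAA.

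The promoters of 4 markers are shown because their transcripts set the pattern below: *Emcn* and *Eng* were lowest and *Cd34* was highest in the same wildtype culture, and *Clec14a* was higher in each *Nhe6*-knockout culture. The sequences are RefSeq's on GRCm38.p6, 5′ to 3′ on the strand of the gene, and end before the first annotated base. Capitals mark GGAA, or TTCC for the other strand. They cover chr3:137340828-137341066 (plus strand) for *Emcn*, chr1:194938571-194938818 (plus) for *Cd34*, chr2:32646345-32646594 (plus) for *Eng* and chr12:58269291-58269508 (minus) for *Clec14a*.
Emcn: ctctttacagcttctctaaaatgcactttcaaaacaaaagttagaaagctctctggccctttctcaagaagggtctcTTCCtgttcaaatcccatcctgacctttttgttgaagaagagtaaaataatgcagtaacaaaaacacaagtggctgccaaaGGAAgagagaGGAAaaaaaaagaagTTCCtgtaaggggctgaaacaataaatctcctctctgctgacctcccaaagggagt
Cd34: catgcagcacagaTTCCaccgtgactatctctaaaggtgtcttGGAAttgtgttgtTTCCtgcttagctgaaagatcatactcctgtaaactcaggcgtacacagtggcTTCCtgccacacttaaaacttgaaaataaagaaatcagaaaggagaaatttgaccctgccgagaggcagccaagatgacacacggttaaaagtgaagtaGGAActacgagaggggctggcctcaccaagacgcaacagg
Eng: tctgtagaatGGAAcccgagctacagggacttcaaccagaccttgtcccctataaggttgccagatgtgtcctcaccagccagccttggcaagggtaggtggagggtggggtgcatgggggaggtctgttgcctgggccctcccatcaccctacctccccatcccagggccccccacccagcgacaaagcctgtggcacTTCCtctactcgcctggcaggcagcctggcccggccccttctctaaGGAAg
Clec14a: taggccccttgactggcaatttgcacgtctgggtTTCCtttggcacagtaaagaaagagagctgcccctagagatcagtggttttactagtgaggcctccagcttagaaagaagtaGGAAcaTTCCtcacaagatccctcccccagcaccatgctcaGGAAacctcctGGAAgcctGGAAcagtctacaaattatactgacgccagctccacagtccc
The core occurred 4 times before *Emcn*, 5 times before *Cd34*, 3 times before *Eng* and 6 times before *Clec14a*. Of 32851 mouse promoter windows of 250 bases, 93.4% hold it at least once, with a median of 3. At least as many matches as for *Emcn* were in 33.4% of the windows. The share was 18.0% for *Cd34*, 54.7% for *Eng* and 8.7% for *Clec14a*. The longer ETS form CCGGAA, searched on both strands and overlapping the core, was in 12.0% of the windows and in no window of the 6 markers with an entry. *Pecam1*, *Plvap*, *Esam* and *Vwf* had no entry.

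The gene counts of a library summed to 25587097 to 29126232 reads. On the first principal component, wildtype replicate 2 lay at 106 and the remaining libraries lay at -28.5 to -6.52. *Nhe6*-knockout replicates 1 and 2 were closer to each other than any other pair, with a mean chi-square of 4.92 per gene against 90.9 to 405, where sampling noise alone gives about 1. They differed by more than sampling noise and were kept as separate cultures. Whether they came from separate isolations is not given in the sources used here, and if they did not, the SDs and p-values rest on fewer independent *Nhe6*-knockout cultures than 3.

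The 10 markers spanned more than 3 orders of magnitude, from *Emcn*, among the more abundant transcripts of the cultures, down to *Pecam1* and *Vwf*, which were close to the limit of detection. Levels between genes were compared per length, as TMM-scaled CPM, the share of a library's reads scaled as edgeR does, per kilobase of exon. *Emcn* had 83.0 ± 44.2 CPM per kb (SD, n = 6 cultures), more than 96.7% of the 13406 genes tested with a known length. *Eng* followed with 33.7 ± 14.7 (SD, n = 6) and *Cd34* with 8.81 ± 7.62 (SD, n = 6). *Clec14a* had 2.71 ± 1.93, *Egfl7* 2.10 ± 0.671 and *Mcam* 0.757 ± 0.247 CPM per kb (SD, n = 6 each). The remaining 4 markers had 0.624 ± 1.17 (*Esam*), 0.205 ± 0.105 (*Plvap*), 0.0247 ± 0.0157 (*Pecam1*) and 0.0187 ± 0.0209 CPM per kb (*Vwf*, SD, n = 6 each). Of neighbours in this order, only *Egfl7* and *Mcam* had ranges over the 6 cultures that did not overlap. *Emcn* stood above *Eng* in 5 of 6 cultures and *Eng* above *Cd34* in 5 of 6, with wildtype replicate 2 as the exception each time. *Esam* and *Plvap* did not keep their order, with *Esam* above *Plvap* in 2 cultures.

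**Figure D1:**
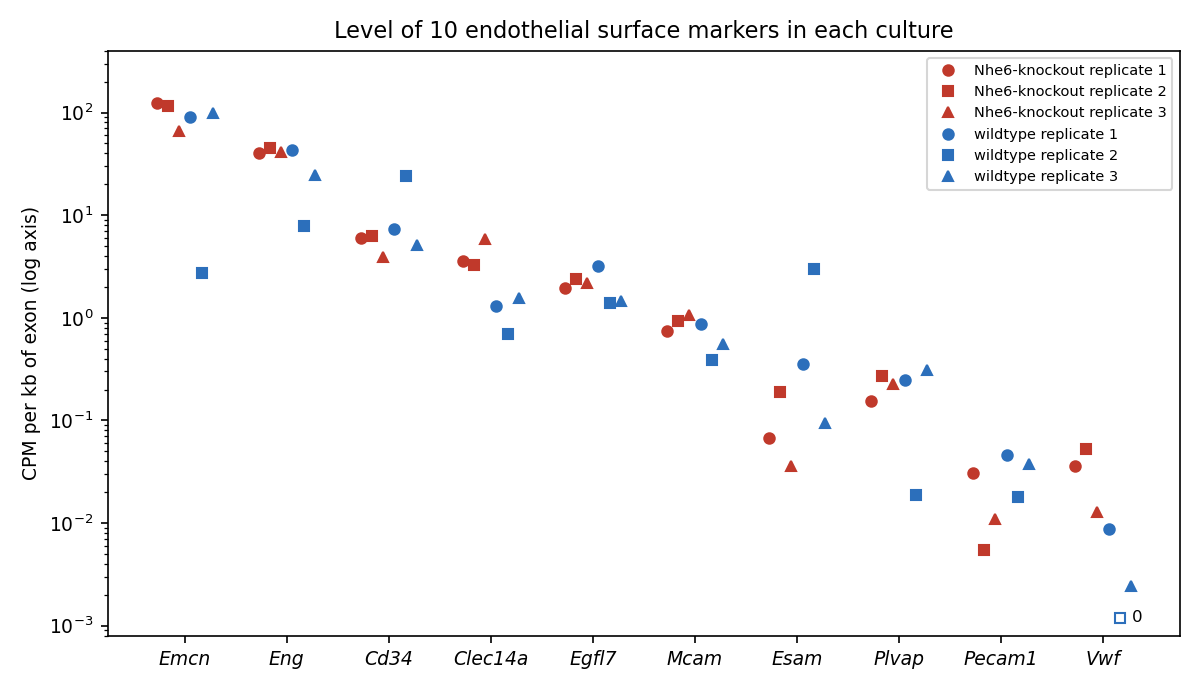
Level of each marker in CPM per kb of exon on a log axis, with 1 point per culture, red for *Nhe6*-knockout and blue for wildtype, and circles, squares and triangles for replicates 1, 2 and 3. *Emcn* and *Eng* lead in 5 of 6 cultures, wildtype replicate 2 is far below the others for *Emcn* and far above them for *Esam*, and its open square for *Vwf* stands for 0 counts.

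A gene was tested when it had enough counts for edgeR's filter, which 13479 genes (55.2%) passed. Of the 10 markers 8 passed, all but *Pecam1* and *Vwf*. Of 36 other listed endothelial genes 16 passed, against 15 of 15 fibroblast, 13 of 15 mural and 14 of 18 macrophage and blood genes. Of the other lists, 7 of 12 epithelial, 3 of 6 lymphatic endothelial, 5 of 10 glial and 5 of 12 melanocyte genes passed. In bulk RNA, fewer cells of a type and less RNA per cell cannot be told apart, here and for all values below.

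The sialomucins are heavily glycosylated surface proteins that regulate leukocyte adhesion. *Emcn* encodes endomucin, a mucin of capillary and venous endothelium, and lies on chromosome 3 of GRCm38 from 137341067 to 137432185. In order of replicate, the *Nhe6*-knockout cultures held 18387, 17401 and 9897 normalized counts (TMM-scaled by edgeR to the mean library) of *Emcn*, and the wildtype cultures held 13408, 409 and 14726. The genotypes overlapped, and wildtype replicate 2 was alone at the low end, with the mean of the other 5 cultures 36.1 times its count. The log2 fold change of *Emcn* in *Nhe6*-knockout over wildtype cells was 0.68 (SE, the standard error, 1.05, edgeR adjusted p = 0.853), and 0.11 (SE 0.28) without that culture.

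*Cd34* encodes the sialomucin CD34 and lies on chromosome 1 from 194938819 to 194961279. It had 1217, 1256 and 793 normalized counts in *Nhe6*-knockout and 1464, 4861 and 1033 in wildtype replicates 1 to 3. Here wildtype replicate 2 was the highest, 4.22 times the mean of the other 5 cultures, and those 5 overlapped between the genotypes. The log2 fold change of *Cd34* was -1.17 (SE 0.59, edgeR adjusted p = 0.498), and -0.20 (SE 0.25) without wildtype replicate 2. Of the 2 related sialomucin genes listed, *Podxl2* counted 709 ± 110 in *Nhe6*-knockout and 747 ± 266 in wildtype cells after normalization (SD, n = 3 each). *Podxl*, which encodes podocalyxin, was lower and more variable, with 28.3 ± 28.5 and 79.96 ± 59.1 (SD, n = 3 each), and neither passed the test.

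Endoglin, the product of *Eng*, is a coreceptor for ligands of the TGF-beta and BMP family, and its gene lies on chromosome 2 from 32646595 to 32682669. *Eng* stood at 4468, 5079 and 4630 normalized counts in the *Nhe6*-knockout cultures, by replicate, and at 4789, 866 and 2721 in the wildtype cultures. The *Nhe6*-knockout cultures lay close together (SD 317) and the wildtype cultures far apart (SD 1963), with wildtype replicate 2 lowest. The log2 fold change of *Eng* was 0.76 (SE 0.55, edgeR adjusted p = 0.658) and 0.33 (SE 0.24) without wildtype replicate 2.

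The receptors that act with endoglin were expressed, while the genes of its ligands BMP9 and BMP10 were at or near 0. *Acvrl1*, the type I receptor ALK1, had 584 ± 44.3 normalized counts in *Nhe6*-knockout and 308 ± 103 in wildtype cells (SD, n = 3 each), without overlap. The log2 fold change of *Acvrl1* was 0.92 (SE 0.28, edgeR unadjusted p = 0.0149, adjusted p = 0.273). *Tgfbr2*, the type II TGF-beta receptor, had 14659 ± 3308 and 14429 ± 1568 normalized counts in the *Nhe6*-knockout and wildtype cells (SD, n = 3 each), or 0.02 as a log2 fold change (SE 0.21). *Bmp10* had 0 reads in all 6 libraries and *Gdf2*, the gene of BMP9, had 1 read in 1 library.

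*Clec14a* was the marker in which the genotypes differed most clearly, although not beyond the threshold of the test. It encodes a C-type lectin-like receptor of endothelial cells that takes part in sprouting and binds the matrix protein multimerin 2, and lies on chromosome 12 from 58264720 to 58269290. *Clec14a* reached 449, 412 and 744 normalized counts in the *Nhe6*-knockout cultures, by replicate, and 163, 87.6 and 196 in the wildtype cultures. The genotypes did not overlap, with *Nhe6*-knockout higher, and p = 0.1 in a two-sided exact permutation test is the smallest that 3 against 3 can give. Such a separation was found for 10.4% of the genes tested in this direction, 9.54% in the other and 19.9% in either. Among the 8 markers tested it was found for *Clec14a* alone. The means were 535 ± 182 and 149 ± 55.5 normalized counts (SD, n = 3 each), and edgeR's log2 fold change for *Clec14a* was 1.85 (SE 0.38, edgeR unadjusted p = 0.00233, adjusted p = 0.123). With DESeq2's Wald test its adjusted p was 3.67e-04, under the threshold of 0.05 that 4.69% of genes passed with that tool. Over 14 alternatives the log2 fold change of *Clec14a* stayed between 1.52 and 2.08 and the adjusted p between 3.67e-04 and 0.473. *Mmrn2*, the gene of multimerin 2, had at most 4 reads in any library. *Cd93*, a lectin-like receptor of the same family, had 61.6, 82.7 and 24.6 normalized counts in *Nhe6*-knockout and 45.9, 3.09 and 22.5 in wildtype replicates 1 to 3, which overlapped.

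The 3 adhesion molecules of the immunoglobulin superfamily were low. *Pecam1* encodes CD31, which binds itself at endothelial junctions, and lies on chromosome 11 from 106654217 to 106750628. By replicate it had 5, 1 and 2 reads in the *Nhe6*-knockout cultures and 8, 3 and 6 in the wildtype cultures. Summed over the cultures and corrected for depth, the ratio of *Nhe6*-knockout to wildtype was 0.448 (95% exact binomial interval 0.167 to 1.10, for counting error only), which includes 1, so no difference was detectable at this depth. The exact two-sided permutation test gave p = 0.2, in a design that cannot go below 0.1. A floor of 3 counts corresponds to 0.101 to 0.116 CPM, and *Pecam1* was at or under it in 3 of 6 libraries.

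*Esam* encodes an adhesion molecule of endothelial tight junctions and platelets, and lies on chromosome 9 from 37528078 to 37538319. By replicate, *Esam* had 5.31, 14.9 and 2.84 normalized counts in the *Nhe6*-knockout and 28.4, 237 and 7.49 in the wildtype cultures. Wildtype replicate 2 held most of the reads, at 20.1 times the mean of the other 5 cultures. The log2 fold change of *Esam* was -3.54 (SE 1.36, edgeR unadjusted p = 0.0382, adjusted p = 0.386), and -1.21 (SE 0.85) without that culture. *Jam2* and *Jam3*, related adhesion genes of the same junctions, were far higher per length than *Esam*, with 22.7 ± 7.57 and 28.6 ± 5.88 CPM per kb (SD, n = 6 each).

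*Mcam* encodes CD146, an adhesion molecule of endothelial cells and pericytes, and lies on chromosome 9 from 44134469 to 44142727. It had 69.0, 85.5 and 97.5 normalized counts in *Nhe6*-knockout and 80.2, 36.1 and 51.3 in wildtype replicates 1 to 3. The groups overlapped, again with wildtype replicate 2 lowest, and the log2 fold change of *Mcam* was 0.59 (SE 0.38, edgeR adjusted p = 0.619). *Alcam*, a relative of *Mcam*, had 11615 ± 800 normalized counts in the *Nhe6*-knockout cultures (SD, n = 3) and 24665, 94863 and 20980 in wildtype replicates 1 to 3, without overlap. Its log2 fold change was -2.01 (SE 0.61, edgeR adjusted p = 0.273), and without wildtype replicate 2 it was -0.98 with an adjusted p of 0.0346. *Lama4*, the laminin chain that CD146 binds, had a log2 fold change of 0.03 (SE 0.26).

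Of the secreted products, *Egfl7* encodes a matrix-bound factor of growing vessels and holds the microRNA miR-126 in an intron, and lies on chromosome 2 from 26580014 to 26593120. By replicate, *Egfl7* had 194, 233 and 215 normalized counts in the *Nhe6*-knockout and 319, 139 and 144 in the wildtype cultures. The *Nhe6*-knockout values lay inside the range of the wildtype values, with a log2 fold change of 0.09 (SE 0.36), and did not pass edgeR's test. Exons of *Egfl7* overlap those of *Agpat2* on the other strand, as do those of *Eng* with *Fpgs*, *Cd34* with *Gm16897* and *Mcam* with *Gm10687*. The strand setting of the counting is not given in the sources used here, so reads of these pairs may not have been told apart. The rows *Mir126a* and *Mir126b* had 0 reads, in libraries of polyadenylated RNA.

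*Vwf* encodes von Willebrand factor, the platelet-binding protein that endothelial cells store in Weibel-Palade bodies, and lies on chromosome 6 from 125546774 to 125686679. *Vwf* reads numbered 15, 25 and 6 in the *Nhe6*-knockout and 4, 0 and 1 in the wildtype cultures, by replicate. The genotypes did not overlap here either, with *Nhe6*-knockout higher (p = 0.1 by the exact permutation test, again the smallest value). Of the genes tested, which leave out *Vwf*, 10.4% separated in this direction. The summed ratio of *Nhe6*-knockout to wildtype was 8.76 (95% exact binomial interval 3.49 to 28.2, for counting error only). *Vwf* did not pass the filter. In the 5 alternatives that tested it, its log2 fold change moved between 2.50 and 4.52 and its edgeR adjusted p between 0.206 and 0.405. The lowest fold was that without wildtype replicate 2. Apart from the fit with no filter beyond 1 count, *Vwf* entered these fits only through *Nhe6*-knockout replicates 1 and 2, where it was highest. These fits therefore give no support for a difference. *Selp*, P-selectin, which is stored in the same bodies, had at most 4 reads in any library.

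*Plvap* encodes the protein of the diaphragms that close fenestrae and caveolae, a protein that barrier endothelium largely lacks, and lies on chromosome 8 from 71497765 to 71511752. It had 8, 16 and 13 reads in *Nhe6*-knockout and 14, 1 and 16 reads in wildtype replicates 1 to 3. All cultures but wildtype replicate 2 lay between 8 and 16 reads, and the log2 fold change was 0.17 (SE 0.82, edgeR adjusted p = 0.957). *Cav1*, which encodes the caveolar coat protein caveolin-1, was abundant in contrast, with 4384 ± 83.2 and 14778 ± 7725 normalized counts in *Nhe6*-knockout and wildtype cells (SD, n = 3 each). The log2 fold change of *Cav1* was -1.75 (SE 0.41, edgeR adjusted p = 0.162), and without wildtype replicate 2 the adjusted p was 0.0140.

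**Figure D2:**
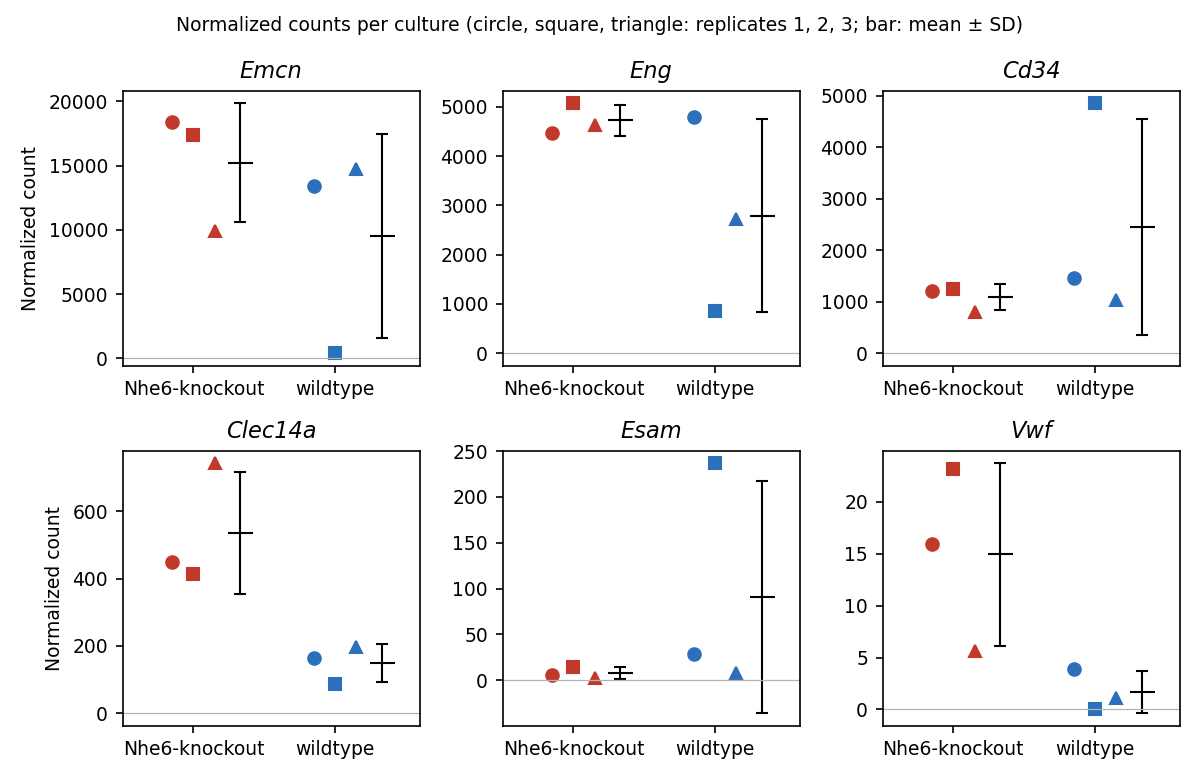
Normalized counts of 6 markers in each culture on linear axes, red for *Nhe6*-knockout and blue for wildtype, with the mean and SD of 3 cultures in black beside the points. Only *Clec14a* and *Vwf* separate the genotypes, while the wildtype mean of *Cd34* and *Esam* and its SD rest on wildtype replicate 2, the blue square.

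Of the 8 markers tested, edgeR called 0 at an adjusted p under 0.05. Of all genes tested 0.0668% were called, 0.0371% as lower and 0.0297% as higher in *Nhe6*-knockout cells. At an unadjusted p under 0.05, 1 marker was higher (*Clec14a*) and 1 was lower (*Esam*), against 6.14% and 5.71% of all genes tested, 11.8% together. With DESeq2, 1 of the 8 passed an adjusted p under 0.05 (*Clec14a*), against 4.69% of all genes. The median log2 fold change of the 8 markers was 0.38, against -0.02 over all genes tested, and 6 of the 8 were above 0. Both rest on wildtype replicate 2, since without it 4 of the 8 were above 0 and their median was close to 0. Without wildtype replicate 2, edgeR called 2.88% of its genes and 0 of the markers, and the lowest adjusted p among them was that of *Clec14a* (0.0616).

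**Figure D3:**
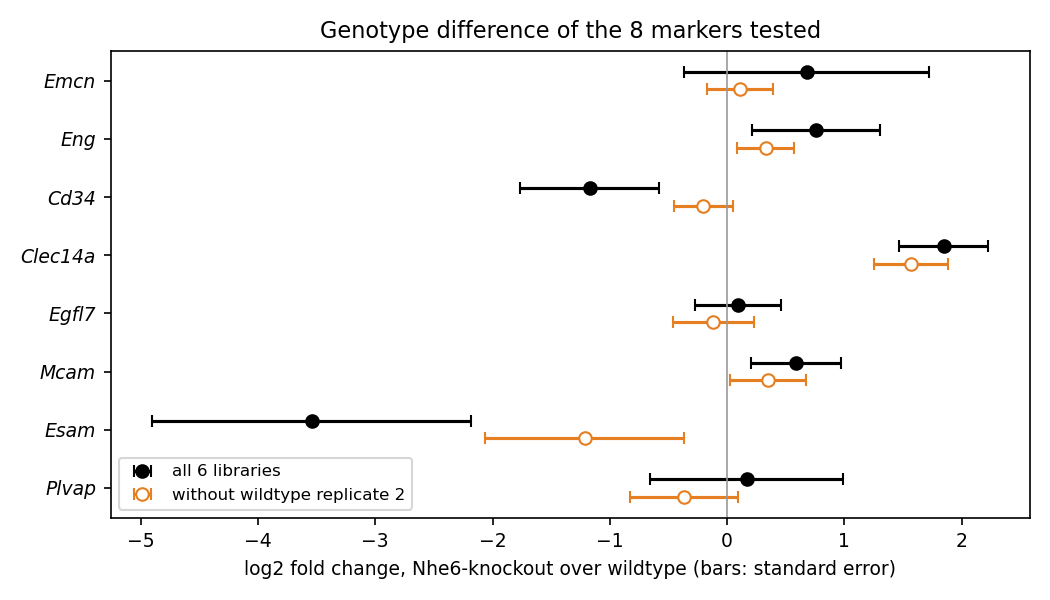
Log2 fold change of *Nhe6*-knockout over wildtype for the 8 markers tested, with standard errors, in all 6 libraries (filled) and without wildtype replicate 2 (open). *Clec14a* stays at 1.85 and 1.57, *Esam* moves from -3.54 to -1.21, *Cd34* moves from -1.17 to -0.20, and *Egfl7* and *Plvap* change sign.

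Wildtype replicate 2 was an extreme culture for each of the 8 markers tested, the lowest for 6 and the highest for *Cd34* and *Esam*. Over all genes tested it was the lowest library for 26.6% and the highest for 26.7%. The 36 other listed endothelial genes summed to 1814 CPM in this library, the highest of the 6. They summed to 1629 and 1676 CPM in the other wildtype and 1229 to 1296 in the *Nhe6*-knockout cultures. That rank, and the separation of the genotypes in these sums, rested on *Thbd*. It held 205 CPM per kb in wildtype replicate 2 and 3.37 to 62.2 in the other cultures. Of the 36, 12 were highest in wildtype replicate 2, among them *Cdh5* and *Flt1*, and 7 were lowest, among them *Nrp1* and *Tm4sf1*. Markers of other cell types moved in the same library. The 18 macrophage and blood genes summed to 19.4 CPM there, against 134 and 218 in the other wildtype and 111 to 216 in the *Nhe6*-knockout cultures, and 10 of the 18 were at 0 in it, among them *Ptprc*, *Adgre1*, *C1qa*, *C1qb* and *C1qc*. The 12 epithelial genes summed to 5.95 CPM there, against 29.8 and 47.3 in the other wildtype and 14.4 to 48.4 in the *Nhe6*-knockout cultures. The 15 mural genes summed to 1467 CPM there, against 794 and 876 in the other wildtype and 953 to 999.8 in the *Nhe6*-knockout cultures, but the list split. In that library 4 of its genes were highest, led by *Acta2*, smooth muscle actin, at 16257 normalized counts against 29.3 to 1204 elsewhere. Another 5 mural genes were lowest there, among them *Pdgfrb*, the PDGF receptor of pericytes, at 7785 against 14680 to 18984. The 15 fibroblast genes summed to 18621 CPM there and to 13919 to 16074 in the other 5 cultures, and split as well, with 6 genes highest there, among them *Col1a2* and *Vim*, and 8 lowest, among them *Mmp2*. The part of these cells in the marker values was not tested.

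**Figure D4:**
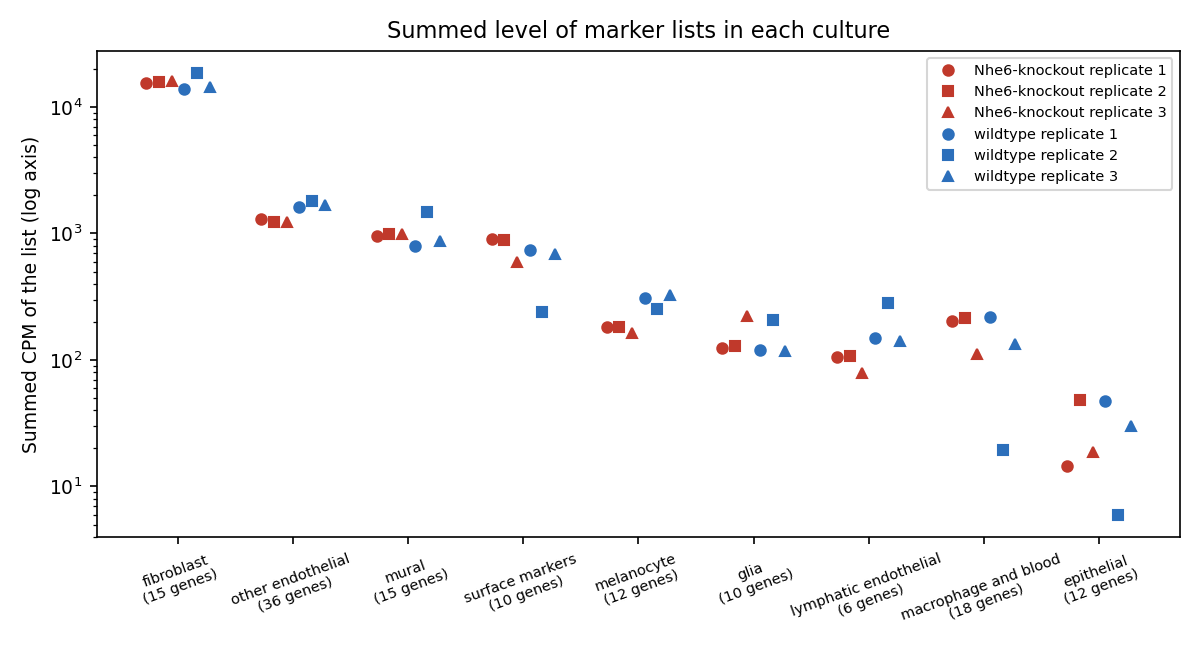
Summed CPM of the genes of each marker list on a log axis, with 1 point per culture, in the colours and shapes used for the markers. The fibroblast list is highest in each culture, in sums that are not scaled by gene length or by the number of genes. For the surface markers the lowest point is wildtype replicate 2, a rank that rests on *Emcn*, the largest part of the sum in every other culture. Wildtype replicate 2 is also the lowest point for the macrophage and blood list and the epithelial list. The same culture is the highest point for the other endothelial, lymphatic endothelial, mural and fibroblast lists. For the other endothelial list that rank rests on *Thbd*.

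The labels call the cells primary endothelial cells, and the other listed endothelial genes ranged from abundant to absent. Of 36 such genes, 10 reached a mean of 100 normalized counts, 18 had at most 10 reads in every library, and *Cldn5*, *Robo4* and *Sox17* had none in any. The highest per length were *Tm4sf1*, *Nrp1*, *Thbd*, *Cdh5* and *Procr*, and *Tm4sf1* and *Nrp1* (78.7 ± 11.3 and 75.8 ± 19.0 CPM per kb, SD, n = 6 each) lay close to *Emcn*. Both are also known outside the endothelium. By edgeR, 1 of the 16 tested was lower in *Nhe6*-knockout cells and 0 were higher, against 0.0371% and 0.0297% of all genes. This was *Cdh5*, VE-cadherin, at 210 ± 27.9 and 3724 ± 1361 normalized counts (SD, n = 3 each; log2 fold change -4.15, SE 0.31, edgeR adjusted p = 0.0133), which was opposite in sign to that of *Clec14a*. The call of *Cdh5* was lost with the replicate block, with *Nhe6*-knockout replicates 1 and 2 summed, and without any 1 of *Nhe6*-knockout replicates 1, 2 and 3 or wildtype replicate 3, while its log2 fold change stayed between -4.37 and -3.83 in the 14 alternatives. DESeq2 called 3 of the 16, against 4.69% of all genes, and all 3 were lower in *Nhe6*-knockout cells without overlap. They were *Cdh5*, *Thbd* and *Flt1*, a VEGF receptor, which had a log2 fold change of -1.79 in edgeR (SE 0.50, adjusted p = 0.242). Without overlap between genotypes, 3 of the 16 were lower, these same genes, and 1 was higher (*Flt4*), against 9.54% and 10.4% of all genes tested. The median log2 fold change of the 16 was -0.12. *Thbd*, the thrombin receptor thrombomodulin, had 345 to 953 normalized counts in *Nhe6*-knockout and 1655 to 21083 in wildtype cultures, and like *Cd34* and *Esam* it was highest in wildtype replicate 2.

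Among 27 partners and relatives of the markers in the table, such as receptors, ligands and sister molecules, 21 were tested. By edgeR, 0 of them passed in either direction (0.0668% of all genes), and 3 of 21 had an unadjusted p under 0.05, a share near the 11.8% of all genes. DESeq2 called *Alcam* and *Cav1*, both lower (4.69% of all genes). Without overlap between genotypes, 2 of the 21 were lower (*Alcam* and *Cav1*) and 1 was higher (*Acvrl1*), against 9.54% and 10.4% of all genes tested. *Bmp10* and *Gp1ba*, which encodes a platelet receptor of von Willebrand factor, had 0 reads in every library. Their median log2 fold change was -0.03. The 5 highest per length were *Alcam*, *Cav1*, *Tgfbr3*, *Id3* and *Tgfbr2*, between 64.5 and 149 CPM per kb.

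For each marker the genes with the most similar profile over the 6 cultures were found, as the root mean square distance of log2 normalized counts after centring, among genes that reached a mean of 100 normalized counts. Closest to *Emcn* were *Fndc5*, *Fam167a* and *Sphkap*, at distances of 0.29 to 0.32 against a median of 1.96 over 11126 genes, and each was also lowest in wildtype replicate 2. *Eng* was followed most closely by *Col23a1* (0.05), *Adamts9* and *Rgl3* (0.14 each), against a median of 0.94. For *Clec14a* the nearest were *5930403L14Rik* (0.20), *Lrrc3* (0.23) and *Arrdc4* (0.28), against 1.06, and for *Cd34* they were *Slc16a13* (0.17), *Gng11* (0.19) and *Htra3* (0.20), against 0.86. *Egfl7* was nearest to *Ptov1*, *Atg4d* and *Mast3* (0.11 to 0.13), and *Mcam* to *Vamp5*, *Amotl2* and *Tle2* (0.07 to 0.11). For *Plvap* the nearest were *Megf6* (0.19), *Pou3f3* (0.22) and *Uty* (0.25), the last a gene of the Y chromosome. *Esam* had no close neighbour, with *Vill*, *Thbd* and *Cldn1* at 0.66 to 0.72, against a median of 2.01. Between markers, *Egfl7* and *Mcam* were the most alike (0.30) and *Emcn* and *Esam* the least (3.78). With 6 points each, these distances describe the libraries and are no test.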

How the data were processed

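The authors sequenced poly(A)-enriched stranded libraries and deposited raw, not normalized, counts under gene symbols. The submitters' processing notes name STAR 2.7.7a, HTSeq 0.13.5, DESeq2 1.26.0 and mm10, and the annotation and strand setting are not given in the sources used here. The 5 summary lines, which held 22.2% of reads, were left out. Genes were filtered with filterByExpr (minimum count 10), normalized with TMM and compared by genotype in edgeR 4.0.16 (glmQLFit and glmQLFTest, R 4.3.3) (Benjamini-Hochberg over all 13479 genes tested, threshold 0.05). Standard errors are the log2 fold change divided by the square root of F, and errors of levels are SDs over cultures. Alternatives were DESeq2 1.42.0, limma-voom (limma 3.58.1), other factors and filters, a replicate block and leaving out each culture. The p-values of the fits weigh the difference between genotypes against the spread between these cultures. The fits were tested on simulated data. Lengths are unions of exons in GENCODE M21 (98.5% of symbols matched). The markers and lists were chosen with earlier results of these data known. All 10 markers are named. From the other lists, the text names genes past the threshold (with edgeR or DESeq2), at 0 in all libraries and among the highest per length, and the 3 nearest profiles per marker. Other partners of a marker, and other list genes, were named after their values were seen. The check of the targeted gene is not reported here.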

Additional observations from a re-analysis of the deposited data

How the results depend on the processing

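The summed alternative, with *Nhe6*-knockout replicates 1 and 2 as 1 library, was chosen after seeing the data. The cause of the changes was not tested. Markers past the threshold were 0 in all alternatives but DESeq2, with 1, where *Clec14a* had a log2 fold change of 1.84. Other endothelial genes past the threshold numbered 1 (*Cdh5*), 3 with DESeq2, 0 with the replicate block and 0 with the summed libraries. With each culture left out they numbered 0 to 3. The most were found without wildtype replicate 2, where *Cdh5* and *Slco1a4* were lower in *Nhe6*-knockout cells and *Tek* was higher (log2 fold change 1.68). Partners and relatives numbered 2 with DESeq2 and 0 to 2 with each culture left out. Over all genes the number was 9, and it was 21 without a filter beyond 1 count, 21 with at least 10 counts in every library, 627 with DESeq2, 2 with the replicate block, 1 with the summed libraries and 0 to 395 with each culture left out, the most without wildtype replicate 2. The sign reversed for *Egfl7* without wildtype replicate 2 or 3 (-0.12 to 0.59 with each culture left out) and for *Plvap* without *Nhe6*-knockout replicate 2 or wildtype replicate 2 (-0.37 to 0.67). The other 6 markers tested kept their sign in all alternatives run. With the longest transcript as the length, *Emcn* had 127 CPM per kb, *Cd34* 20.98, *Egfl7* 4.04 and *Pecam1* 0.0447, which left *Emcn* highest but put *Egfl7* above *Clec14a* (2.71) and *Esam* (0.960) above *Mcam* (0.849). Replicate numbers did not pair the cultures (correlations of same-numbered deviations 0.21, -0.19 and 0.11), and the block changed no call of a marker. Counts of *Pecam1*, *Vwf* and *Plvap* were too low for a difference to be measured firmly.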

Other observations

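Among 12 melanocyte genes, *Gsta4*, *Gpnmb*, *Mitf* and *Pmel* had reads in every culture, while 5 others were counted mainly in 1 culture. In wildtype replicate 3, *Tyrp1* had 271 reads, *Dct* 166, *Slc45a2* 33, *Mlana* 31 and *Tyr* 23, against at most 5 reads of any of these in the other 5 cultures. These 5 were chosen for mention after their values were seen. Of the lymphatic endothelial genes, *Pdpn* was high in each culture (77.4 ± 39.3 CPM per kb, SD, n = 6) while *Prox1*, the lymphatic transcription factor, had at most 8 reads and *Ccl21a* had none. Of the glial genes, *Ncam1* and *S100b* were the highest per length, and *Foxd3* had no reads. The mural gene *Higd1b* and the epithelial gene *Kcne1* also had none.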
